A study of Mus musculus with 6 samples.

Results

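The enzymes and carriers of glycolysis and the pentose phosphate pathway were followed step by step in RNA. It came from cultured aortic smooth muscle cells of mice with or without a smooth muscle deletion of Pdk4. A list of 32 genes was used, which runs from the glucose transporters to lactate export and mitochondrial pyruvate entry and then through both arms of the pentose phosphate pathway. Of these, 28 were found by gene name among the 41721 genes of the count table, and the other 4 (Pfkfb2, Gapdh, Pgam1 and Eno1) carried no name there and were found through the protein named in their description. The cells came from the abdominal aorta of Pdk4fl/fl mice (3 libraries) and Pdk4SMKO mice (3 libraries). Cells of both genotypes received Ang II (1 μM, 48 h), so that no culture without Ang II enters any comparison. Pdk4fl/fl mice carry loxP sites around several Pdk4 exons and served as controls. Pdk4SMKO mice carry in addition a tamoxifen-inducible Cre under the Myh11 promoter, which is active in smooth muscle, and the methods describe tamoxifen for both genotypes. The methods describe male mice, and state that this Cre transgene is Y-linked, so that the knockout can be made in males only. Even so, Xist, the transcript of the inactive X in females, lay at 15.7 to 26.8 CPM in the Pdk4SMKO libraries. In the Pdk4fl/fl libraries Xist lay at 0.378 CPM or less. The source of Xist in the Pdk4SMKO libraries was not tested. The mice were 10 weeks old, and the cells were used after several passages in high-glucose medium and a period without serum. The libraries of a genotype are described as biological replicates, without saying whether these were separate animals or separate cultures, so the p-values measure the spread between these libraries.

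Glycolysis splits glucose into pyruvate in the cytosol, and its flux is set mainly at glucose entry, hexokinase, phosphofructokinase and pyruvate kinase, where isoforms with different regulation are encoded by separate genes. Pyruvate is then either reduced to lactate and exported with a proton, or carried into mitochondria, where pyruvate dehydrogenase, the enzyme that PDK4 inhibits, turns it into acetyl-CoA. The pentose phosphate pathway leaves glycolysis at glucose 6-phosphate, makes NADPH in its oxidative arm, and through its reversible arm makes ribose 5-phosphate and returns sugars to glycolysis.

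The libraries held 16526044 to 22481670 counted reads each. Levels are given as CPM, in which the library totals are made equal with the help of TMM factors. These correct for libraries in which a few genes take much of the reads. The factors were 0.784 to 0.838 in Pdk4fl/fl and 1.21 to 1.26 in Pdk4SMKO libraries, so the choice of scaling shifts every difference between the genotypes. Levels of different genes are compared only as RPKM, the same value per kilobase of gene length. Pdk4 lay at 31.9 to 38.0 CPM in Pdk4fl/fl and 4.83 to 9.06 CPM in Pdk4SMKO libraries. Genes that mark cell types also differed with genotype. The summed CPM of 10 smooth muscle markers was 1279 to 1371 in Pdk4fl/fl and 1555 to 2095 in Pdk4SMKO cells. Of these markers, 3 were called lower and 5 higher. The 3 called lower were Tagln (mean 253 to 52.7 CPM), Smtn (280 to 57.5) and Cnn1 (19.5 to 6.88). The sum was raised mostly by Acta2 (233 to 701 CPM, called higher) and Cald1 (526 to 929 CPM, not called). Myh11, also called higher, lay at 0.757 CPM or less in Pdk4fl/fl and at 2.72 CPM or less in Pdk4SMKO cells. The sums were 626 to 855 and 5152 to 7054 for 6 fibroblast markers (1 lower, 3 higher), 74.2 to 99.99 and 723 to 1325 for 8 mesothelial markers (7 higher), 21.4 to 38.1 and 30.6 to 87.2 for 8 macrophage markers (1 lower, 6 higher, and Adgre1, C1qa, C1qb and Tyrobp without a count in Pdk4fl/fl cells), 13.7 to 23.1 and 2.89 to 5.36 for 5 endothelial markers (2 lower) and 360 to 433 and 224 to 372 for 5 proliferation markers (1 lower). Single genes carried some of these sums. Cd68, the 1 macrophage marker called lower, made up most of the Pdk4fl/fl sum and fell from a mean of 31.2 to 4.29 CPM. Lyz2, one of the 6 called higher, rose from 0.118 to 33.0 CPM and made up most of the Pdk4SMKO sum. Col1a1, at 620 and 5901 CPM, made up most of the fibroblast sum in both genotypes. The part of these markers in the differences of the enzymes was not tested. In bulk RNA, fewer cells of a type and less RNA per cell cannot be told apart.

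Genes of the pathway differed in both directions, with phosphofructokinase, lactate dehydrogenase, Slc16a3 and G6pdx higher and pyruvate kinase, Eno2 and Rpia lower in Pdk4SMKO cells. Of the 28 genes found by name, all of which passed the filter on low counts, 10 were higher and 4 were lower in Pdk4SMKO cells with an adjusted p under 0.05 and at least a 2-fold difference (edgeR's quasi-likelihood test, Benjamini-Hochberg over 14085 genes). These are 35.7% and 14.3% of the 28 genes, where 32.8% of all genes tested were called higher and 26.5% were called lower. Aldoc and Slc16a3, both called higher, passed the filter only through the Pdk4SMKO libraries in which they were high, so the shares are a description. With at least 10 counts required in every library, 8 were called higher. By the adjusted p alone (under 0.05), 11 of the 28 were higher and 11 were lower, 39.3% each, against 42.0% and 37.1% of all genes. In 24 of the 28 the libraries of the genotypes did not overlap, as was the case for 81.8% of all genes. The median log2 fold change was 0.11 for the 28 genes and 0.12 for all genes tested. Scaling by library size alone, which moved the median of all genes to 0.72, gave 11 higher and 2 lower genes of the 28. Under that scaling, 5 of the listed genes that did not pass the test passed it as higher, still under 2-fold: Slc2a1 (log2 fold change 0.95), Hk1 (0.68), Tpi1 (0.74), Pgam1 (0.67) and Pgd (0.78). The 4 genes found by description all stayed under the 2-fold limit with TMM scaling and all libraries. Of them Pfkfb2 passed that limit under scaling by library size alone (log2 fold change 1.58), and it reached 1.07 with a library left out. The library Pdk4SMKO 1 held the highest macrophage and mesothelial sums. Without it the same 10 genes were called higher and the same 4 lower. The other Pdk4SMKO libraries still held mesothelial sums of 723 and 829 CPM (74.2 to 99.99 in Pdk4fl/fl), so the part of other cell types was not tested by this.

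**Figure D1:**
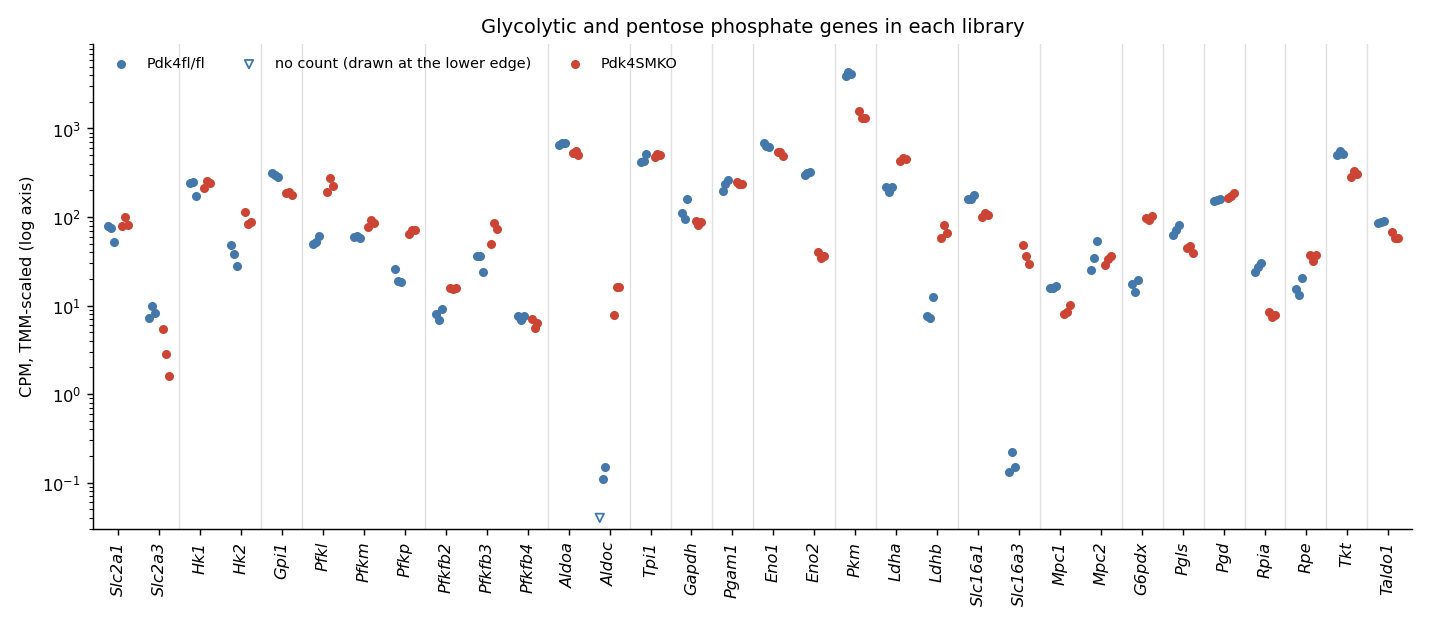
Level of each of the 32 genes in every library, in CPM on a log axis, ordered by step with grey lines between steps. Each point is a library (blue, Pdk4fl/fl, and red, Pdk4SMKO). Aldoc and Slc16a3 lie below 1 CPM in all Pdk4fl/fl and above 5 CPM in all Pdk4SMKO libraries, Pkm has the highest values in both genotypes, and the points of Eno2 lie well apart with the Pdk4SMKO libraries below.

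At glucose entry, Slc2a1, which encodes the widely expressed transporter GLUT1, measured 78.2, 74.7 and 51.8 CPM in Pdk4fl/fl and 78.4, 101 and 81.0 CPM in Pdk4SMKO libraries. The values of Pdk4SMKO 1 and Pdk4fl/fl 1 were nearly equal, and the log2 fold change of 0.35 (standard error, SE, 0.17) did not pass the test (adjusted p = 0.090). Slc2a3, which encodes the high-affinity transporter GLUT3, was low in all libraries. It measured 7.33, 9.94 and 8.17 CPM in Pdk4fl/fl and 5.44, 2.84 and 1.62 CPM in Pdk4SMKO cells. Every Pdk4SMKO library lay below every Pdk4fl/fl library and the log2 fold change was -1.35 (SE 0.38, adjusted p = 0.0075). Scaling by library size alone reduced this to -0.74 with an adjusted p of 0.10, and ended the call. Per kilobase, Slc2a3 was 5.85% of the summed level of both transporters in Pdk4fl/fl and 1.86% in Pdk4SMKO cells.

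The hexokinases trap glucose as glucose 6-phosphate, and the 2 genes behaved differently. Hk2, the inducible isoform, rose from 48, 38.1 and 28.0 CPM in Pdk4fl/fl to 113, 84.3 and 88.3 CPM in Pdk4SMKO libraries, without overlap. Its log2 fold change was 1.32 (SE 0.20, adjusted p = 0.00013). Hk1, the housekeeping isoform, measured 222 ± 42.7 and 235 ± 22.4 CPM (SD, n = 3 each) with overlapping libraries, and its log2 fold change of 0.08 did not pass the test (adjusted p = 0.63). Hk2 transcripts made up 25% of both hexokinases per kilobase in Pdk4fl/fl and 44.1% in Pdk4SMKO cells. Gpi1, the isomerase that follows, was lower in every Pdk4SMKO library at 62% of the Pdk4fl/fl mean, with a log2 fold change of -0.69 (adjusted p = 0.00020). A further 16.4% of the reads of this protein were counted on other rows of the table, and under scaling by library size alone the log2 fold change was -0.09.

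Phosphofructokinase, which commits sugar to glycolysis, showed a difference in each of its 3 genes. Pfkl, named for liver, measured 50.1, 52.4 and 61.1 CPM in Pdk4fl/fl and 191, 276 and 224 CPM in Pdk4SMKO libraries. The lowest Pdk4SMKO library lay above 3 times the highest control, and the log2 fold change was 2.08 (SE 0.16, adjusted p = 1.0e-06). Pfkp, named for platelets, rose from 21.2 ± 4.17 to 69.2 ± 3.88 CPM (SD, n = 3), a log2 fold change of 1.71 (SE 0.16, adjusted p = 3.6e-06). Its row overlaps Pitrm1 on the opposite strand, which fell (log2 fold change -1.84), and since the use of strand in counting is not given in the sources used here, reads from the overlap cannot be told apart. Pfkm, named for muscle, rose by less, from 59.0 ± 1.68 to 85.2 ± 7.76 CPM (SD, n = 3), with a log2 fold change of 0.53 (adjusted p = 0.0020) that reached 1.13 under scaling by library size alone. Summed per kilobase, the 3 genes went from 34, 34.5 and 35.3 to 76.6, 102 and 87.4, 2.56 times the control mean. Pfkm was the more abundant gene of the Pfkm and Pfkl pair in Pdk4fl/fl cells, with 61.7% of their sum, and the less abundant in Pdk4SMKO cells, with 35.7%.

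PFKFB enzymes make and remove fructose 2,6-bisphosphate, the allosteric activator of phosphofructokinase. Pfkfb3, the isoform with the strongest kinase activity, measured 36.3, 36.0 and 23.8 CPM in Pdk4fl/fl and 49.7, 84.7 and 73.4 CPM in Pdk4SMKO libraries. The genotypes did not overlap, and the log2 fold change was 1.11 (SE 0.22, adjusted p = 0.00094). This lay near the 2-fold limit, and without Pdk4fl/fl 3 it was 0.92 and without Pdk4SMKO 2 it was 0.95, both under that limit. Pfkfb2 went from 8.05 ± 1.18 to 15.8 ± 0.244 CPM (SD, n = 3), a log2 fold change of 0.97 (adjusted p = 0.00045), just under 2-fold, and 1.58 under scaling by library size alone. Its row overlaps Yod1 on the opposite strand, which also rose, from 4.37 to 11.8 CPM (log2 fold change 1.42), and reads from the overlap cannot be told apart. Pfkfb4 lay at 6.86 to 7.67 and 5.57 to 7.11 CPM, with overlapping libraries and a log2 fold change of -0.22 that did not pass the test (adjusted p = 0.33) and was 0.39 under scaling by library size alone.

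Aldolase cleaves fructose 1,6-bisphosphate, and its 2 expressed genes stood at very different levels. Aldoc, known mainly from brain, had 0, 2 and 2 counts in the Pdk4fl/fl libraries and 178, 328 and 329 counts in the Pdk4SMKO libraries. These correspond to at most 0.151 CPM and to 7.82, 16.3 and 16.1 CPM, a ratio of 153 (95% interval 59.6 to 564, exact and covering counting error only). Aldoa, the ubiquitous form, lay at 679 ± 20.8 and 529 ± 22.4 CPM (SD, n = 3), with every Pdk4SMKO library below every control. Its log2 fold change was -0.36 (adjusted p = 0.013) and turned to 0.25 under scaling by library size alone, under which the median of all genes was 0.72. Aldoc reached no more than 2.78% of both aldolases per kilobase in any library, and the summed step measured 232 ± 7.13 and 185 ± 7.72 RPKM (SD, n = 3).

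Between aldolase and enolase, each step rests on 1 gene and differed by less than 2-fold. Tpi1, triose phosphate isomerase, measured 456 ± 52.2 and 498 ± 20.2 CPM (SD, n = 3, log2 fold change 0.13, adjusted p = 0.36), and Pgam1, phosphoglycerate mutase, measured 231 ± 34.1 and 239.9 ± 7.97 CPM (SD, n = 3, log2 fold change 0.06, adjusted p = 0.71). The libraries of both genotypes overlapped in each of these genes. Phosphoglycerate kinase, the step between them, is not among the 32 genes. Its gene Pgk1 was found by description and measured 446 ± 33.1 and 537 ± 9.50 CPM (SD, n = 3), without overlap but with an adjusted p of 0.051 for a log2 fold change of 0.27. Gapdh had a log2 fold change of -0.50 (adjusted p = 0.026) on its own row, and 0.12 under scaling by library size alone. This value is uncertain, since 81.9% to 87.8% of the reads described as this protein were counted on 274 other rows, 269 of them pseudogenes. Over all of these rows together, Gapdh measured 826 ± 67.7 and 512 ± 55.6 CPM (SD, n = 3, p = 0.10 by an exact permutation test, two-sided, which cannot go lower with 3 libraries against 3).

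Enolase showed the largest fall among the 32 genes. Eno2, the neuronal isoform, measured 301, 316 and 322 CPM in Pdk4fl/fl and 40.5, 34.6 and 36.4 CPM in Pdk4SMKO libraries. The libraries within each genotype lay close together, and the level in Pdk4SMKO cells was 11.9% of that in controls, with a log2 fold change of -3.08 (SE 0.12, adjusted p = 2.1e-08). Eno1, the ubiquitous isoform, measured 644 ± 34.6 and 523 ± 33.4 CPM (SD, n = 3), without overlap, for a log2 fold change of -0.30 (adjusted p = 0.035). Under scaling by library size alone it was 0.30 and passed the test in the other direction (adjusted p = 0.043). Eno2 thus went from 35.2% to 7.36% of both enolases per kilobase. Its row lies on chromosome 6 at 131453802 to 131463370 in the table's coordinates, 37.8 kb from Tpi1 (131501186 to 131504752), which lies on the same strand and did not pass the test. Those coordinates belong to the C57BL/6NJ strain annotation whose identifiers the table uses.

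Pkm, which encodes both pyruvate kinase M1 and M2 in a single row, was the most abundant of the 32 genes per kilobase in either genotype. It measured 3959, 4312 and 4151 CPM in Pdk4fl/fl and 1581, 1321 and 1302 CPM in Pdk4SMKO libraries. Every Pdk4SMKO library lay far below every control, and the log2 fold change was -1.56 (SE 0.14, adjusted p = 2.5e-06). It was -0.95 under scaling by library size alone, past the adjusted p but short of 2-fold. Its splice forms were not told apart in these counts.

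Lactate dehydrogenase interconverts pyruvate and lactate, and both of its genes rose. Ldha, which encodes the subunit typical of muscle and of glycolytic cells, measured 219, 190.4 and 217 CPM in Pdk4fl/fl and 431, 458 and 453 CPM in Pdk4SMKO libraries. The spread within a genotype was small beside the difference, which had a log2 fold change of 1.10 (SE 0.12, adjusted p = 9.9e-06). Ldhb, which encodes the subunit typical of heart, rose from 7.67, 7.19 and 12.4 CPM to 57.3, 81.7 and 66.9 CPM. Its log2 fold change of 2.93 (SE 0.23, adjusted p = 1.2e-06) brought it from 7.36% to 21.9% of both genes per kilobase, and Ldha stayed the more abundant in every library. Summed, the step measured 75.7 ± 6.47 RPKM in Pdk4fl/fl and 192 ± 12.1 in Pdk4SMKO cells (SD, n = 3).

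Lactate and pyruvate leave the cell through the monocarboxylate transporters. Slc16a3, which encodes MCT4, the exporter of glycolytic tissues, had 2, 4 and 2 counts in the Pdk4fl/fl libraries and 1098, 737 and 598 counts in the Pdk4SMKO libraries. In CPM these are 0.220 or less and 48.2, 36.7 and 29.3, a ratio of 223 (95% interval 113 to 518, exact and covering counting error only). Slc16a1, which encodes MCT1, moved the other way, from 166 ± 10.4 to 106 ± 6.44 CPM (SD, n = 3), a log2 fold change of -0.65 (adjusted p = 0.00039) that shrank to -0.04 under scaling by library size alone. Slc16a3 thus went from 0.10% to 23.0% of both transporters per kilobase, while their sum went from 37.5 ± 2.35 to 31.0 ± 1.61 RPKM (SD, n = 3). Emb, a partner protein of monocarboxylate transporters, rose with a log2 fold change of 2.47 (adjusted p = 8.9e-05) and stood at 52.9, 154 and 150.5 CPM in the Pdk4SMKO libraries, and Bsg, the partner of MCT1 and MCT4, measured 802 ± 91.4 and 874 ± 85.0 CPM (SD, n = 3, log2 fold change 0.12, adjusted p = 0.42). The mitochondrial pyruvate carrier needs the products of both Mpc1 and Mpc2. Mpc1 went from 16.1 ± 0.451 to 8.87 ± 1.11 CPM (SD, n = 3, log2 fold change -0.86, adjusted p = 0.00080, and -0.25 under scaling by library size alone), and Mpc2 from 37.5 ± 14.2 to 32.8 ± 4.02 CPM (SD, n = 3, log2 fold change -0.19, adjusted p = 0.48, and 0.43 under scaling by library size alone).

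**Figure D2:**
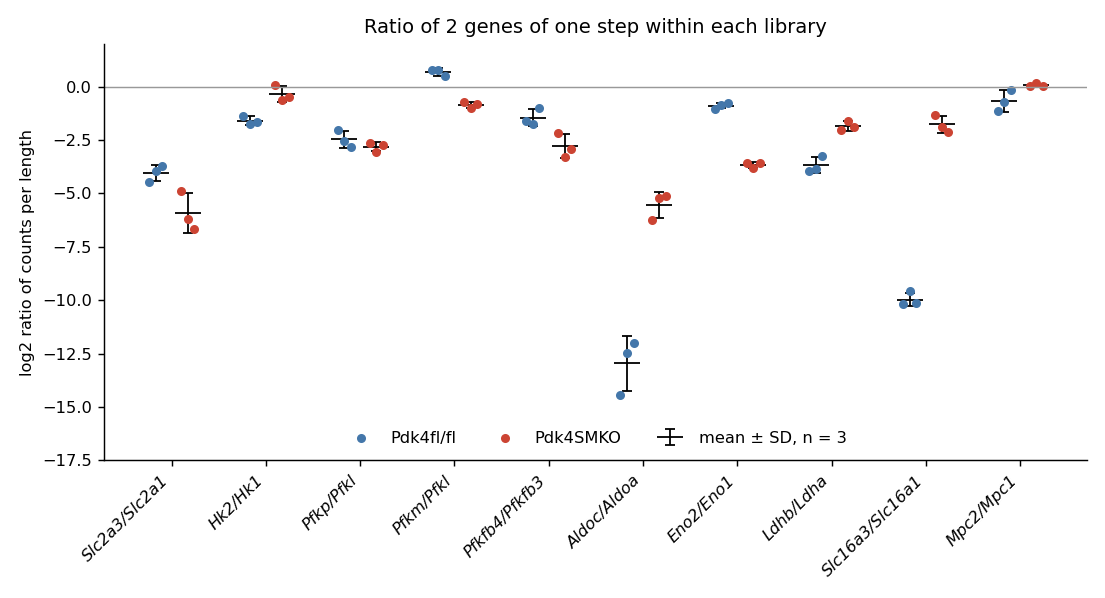
Log2 ratio of the counts per length of 2 genes of one step within each library, with 0.5 added to each count (points, libraries, and bars, mean ± SD, n = 3 per genotype). Such a ratio does not depend on the scaling between libraries. The genotypes separate in 9 of the 10 pairs, most for Slc16a3/Slc16a1 and Aldoc/Aldoa, and overlap for Pfkp/Pfkl. Of all single genes tested, 81.8% do not overlap.

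Ratios between genes of one step within a library do not depend on how libraries are scaled to each other. Of 10 such pairs, 9 did not overlap between genotypes, each with the smallest p that the exact two-sided permutation test allows here (p = 0.10, and 0.11 after Benjamini-Hochberg adjustment over the 10 pairs), and Pfkp/Pfkl overlapped (p = 0.30). On the log2 scale, the mean ratio of Eno2 to Eno1 fell from -0.88 ± 0.13 to -3.66 ± 0.14, and that of Ldhb to Ldha rose from -3.68 ± 0.38 to -1.84 ± 0.21 (SD, n = 3). The ratio of Slc16a3 to Slc16a1 rose from -9.97 ± 0.33 to -1.77 ± 0.41 (SD, n = 3), where the control value rests on 8 counts over 3 libraries.

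The start of RefSeq transcripts was examined for short letters found in the binding sites of known regulators. The reason was that Eno2 fell by far more than Eno1, Slc16a3 rose while Slc16a1 fell, and Ldha and Slc16a3 both rose. Windows of 300 bases around transcript starts in the GRCm38.p6 assembly were matched by symbol for 32 of 33 genes, the 32 listed and Pgk1, and Slc2a3 had none. The letters ACGTG or GCGTG, the core of the hypoxia response element, were found on at least 1 strand in 43.8% of all 32851 windows and in 38 of the 48 windows of these genes (79.2%). Some genes have several windows, which can overlap. By gene, the letters were found in 9 of the 10 called higher and in 16 of the 18 not called. They were found in 2 of the 3 genes called lower that had a window. By window these were 12 of 13 for the genes called higher, 2 of 4 for those called lower and 23 of 30 for those not called. Matches on both strands are counted, so that an E-box (CACGTG, in 7.15% of all windows and in 5 of the 48) holds 2 overlapping matches. Of these, 5 windows are shown, written 5′ to 3′ in the direction of transcription, with the matches in capitals.
Slc16a1, chr3:104638414-104638713, plus strand, with 5 matches: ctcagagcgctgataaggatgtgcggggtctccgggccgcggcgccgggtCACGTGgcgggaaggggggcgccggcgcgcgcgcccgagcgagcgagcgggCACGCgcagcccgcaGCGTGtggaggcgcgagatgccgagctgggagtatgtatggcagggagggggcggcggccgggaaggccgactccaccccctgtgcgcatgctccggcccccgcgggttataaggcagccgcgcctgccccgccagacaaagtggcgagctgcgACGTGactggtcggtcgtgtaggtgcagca
Slc16a3, chr11:120948817-120949116, plus strand, with 2 matches: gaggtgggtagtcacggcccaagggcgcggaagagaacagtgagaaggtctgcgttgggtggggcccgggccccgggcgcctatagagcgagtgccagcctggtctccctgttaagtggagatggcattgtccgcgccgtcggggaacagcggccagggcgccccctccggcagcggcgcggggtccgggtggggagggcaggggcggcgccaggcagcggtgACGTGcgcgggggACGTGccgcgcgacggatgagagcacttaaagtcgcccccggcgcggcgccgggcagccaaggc
Ldha, chr7:46845554-46845853, plus strand, with 7 matches: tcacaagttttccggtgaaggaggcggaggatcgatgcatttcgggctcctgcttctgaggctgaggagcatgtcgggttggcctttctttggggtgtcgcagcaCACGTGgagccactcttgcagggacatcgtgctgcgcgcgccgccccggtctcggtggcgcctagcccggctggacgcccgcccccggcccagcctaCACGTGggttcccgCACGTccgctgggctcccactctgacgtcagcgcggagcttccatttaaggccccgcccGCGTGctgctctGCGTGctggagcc
Eno1, chr4:150236458-150236757, plus strand, with 2 matches: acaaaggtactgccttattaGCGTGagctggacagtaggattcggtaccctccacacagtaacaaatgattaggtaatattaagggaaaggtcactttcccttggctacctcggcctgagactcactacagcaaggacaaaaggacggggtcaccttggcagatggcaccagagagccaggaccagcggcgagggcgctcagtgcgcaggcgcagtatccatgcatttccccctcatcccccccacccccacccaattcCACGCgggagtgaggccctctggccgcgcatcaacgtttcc
Eno2, chr6:124769624-124769923, minus strand, with 0 matches: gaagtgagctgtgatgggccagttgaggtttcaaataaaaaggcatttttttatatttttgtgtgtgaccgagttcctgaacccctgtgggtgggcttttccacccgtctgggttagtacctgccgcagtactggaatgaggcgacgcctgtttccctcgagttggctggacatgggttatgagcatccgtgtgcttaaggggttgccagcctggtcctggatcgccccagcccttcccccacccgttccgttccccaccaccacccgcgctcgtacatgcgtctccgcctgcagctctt
These are 1 window per gene, and the part of the matches in the levels of the genes was not tested. The letters are a description of these windows and no binding was measured.

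**Figure D3:**
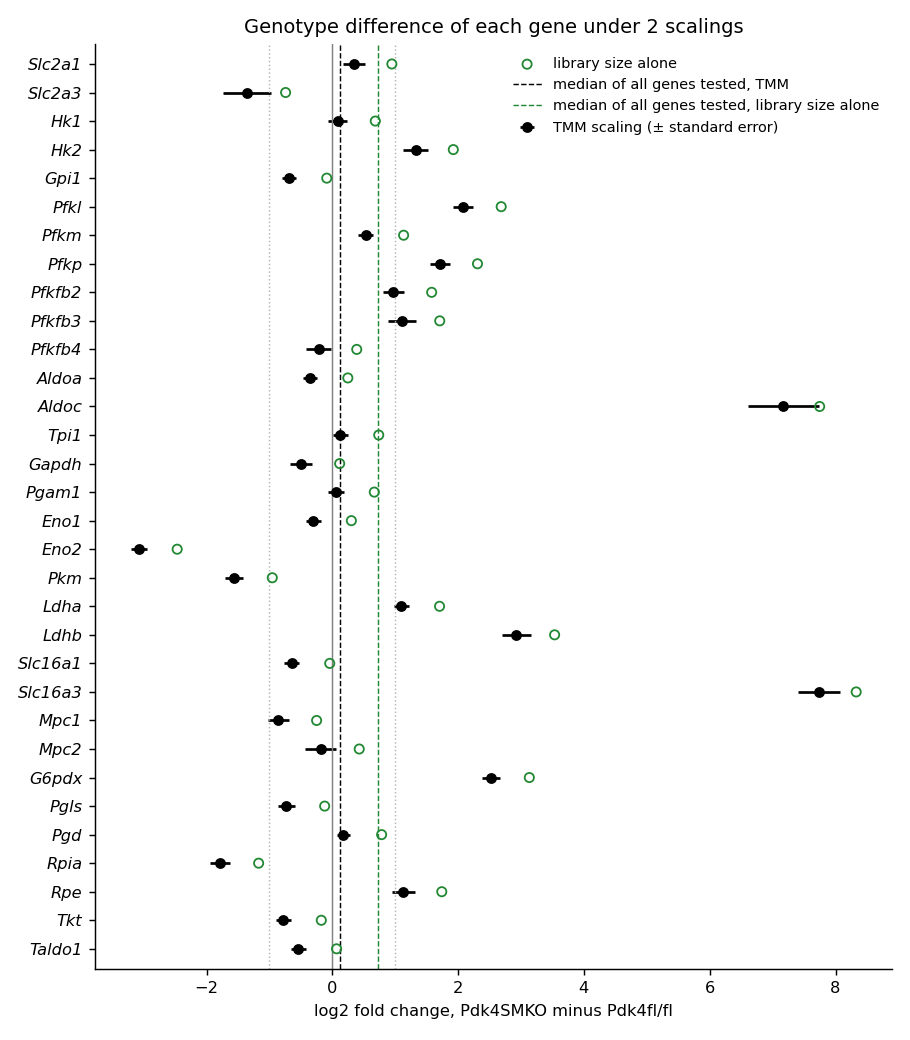
Log2 fold change of each of the 32 genes, Pdk4SMKO minus Pdk4fl/fl, with TMM scaling (filled, ± standard error) and with scaling by library size alone (open). Dotted lines mark 2-fold and dashed lines the median of all genes tested under each scaling (0.12 and 0.72). Library size alone moves every gene to the right by a like amount, which turns the sign of 6 small differences and of none of the 14 named genes called.

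In the oxidative arm of the pentose phosphate pathway, G6pdx rose, Pgls fell and Pgd did not pass the test. G6pdx, glucose-6-phosphate dehydrogenase, measured 17.6, 14.4 and 19.4 CPM in Pdk4fl/fl and 98.5, 92.5 and 104 CPM in Pdk4SMKO libraries, a log2 fold change of 2.52 (SE 0.14, adjusted p = 1.5e-07). Every Pdk4SMKO library lay far above the controls. Its row overlaps Ikbkg on the opposite strand, which also rose (log2 fold change 2.65), and reads from the overlap cannot be told apart. G6pdx lies on the X chromosome, and Xist differed between the genotypes as given in the opening. Its part in the level of G6pdx was not tested. The other X-linked genes of these pathways that were tested had log2 fold changes of 0.27 (Pgk1), -2.13 (Prps1), 2.09 (Prps2) and 1.76 (Pfkfb1). Pgls, the lactonase that follows, fell from 72.0 ± 9.31 to 43.4 ± 3.90 CPM (SD, n = 3, log2 fold change -0.73, adjusted p = 0.00064), and under scaling by library size alone the log2 fold change was -0.12. Pgd, the 6-phosphogluconate dehydrogenase that makes the other NADPH, measured 155 ± 5.25 and 175 ± 10.3 CPM (SD, n = 3), a log2 fold change of 0.18 that did not pass the test (adjusted p = 0.16).

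The reversible arm also split. Rpia, which makes ribose 5-phosphate from ribulose 5-phosphate, fell from 23.8, 27.1 and 30.3 CPM in Pdk4fl/fl to 8.47, 7.37 and 7.75 CPM in Pdk4SMKO libraries. The log2 fold change was -1.78 (SE 0.16, adjusted p = 3.4e-06). Rpe, the epimerase that takes the same substrate toward xylulose 5-phosphate, rose from 15.2, 13.3 and 20.7 to 37.6, 32 and 37.5 CPM, a log2 fold change of 1.13 (SE 0.18, adjusted p = 0.00021). Neither gene overlapped between genotypes, and from nearly equal levels they moved apart. The mean RPKM was 5.23 for Rpia and 5.26 for Rpe in Pdk4fl/fl cells, and 1.52 and 11.5 in Pdk4SMKO cells. Rpe shares an overlap on opposite strands with Kansl1l, which fell (log2 fold change -1.07). Transketolase and transaldolase return carbon to glycolysis, and both fell by less than 2-fold. Tkt went from 524 ± 25.7 to 305 ± 24.7 CPM (SD, n = 3, log2 fold change -0.78, adjusted p = 0.00014), and Taldo1 from 88.8 ± 2.05 to 61.1 ± 5.50 CPM (SD, n = 3, log2 fold change -0.54, adjusted p = 0.0016). Scaling by library size alone gave -0.18 for Tkt and 0.07 for Taldo1.

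**Figure D4:**
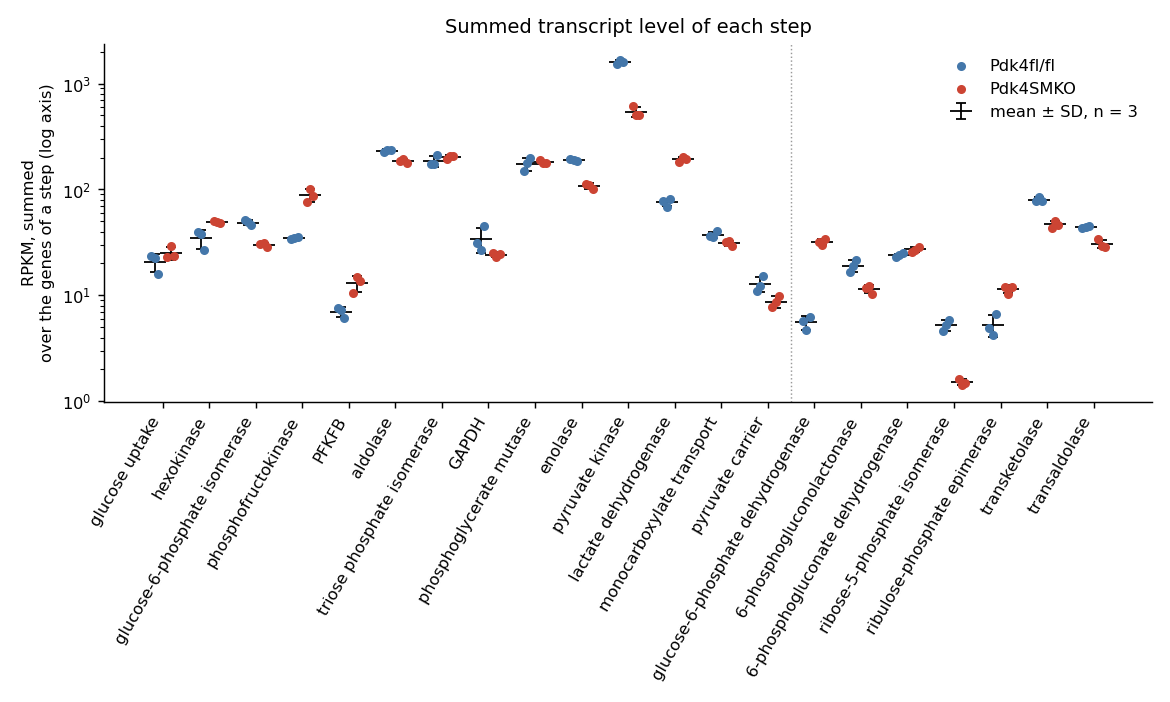
RPKM summed over the genes of each step, on a log axis (points, libraries, and bars, mean ± SD, n = 3 per genotype). The dotted line separates glycolysis from the pentose phosphate pathway. Phosphofructokinase, lactate dehydrogenase and glucose-6-phosphate dehydrogenase are higher and pyruvate kinase, enolase and ribose-5-phosphate isomerase are lower in Pdk4SMKO cells.

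Summed over the genes of a step, the transcripts of 21 steps differed in both directions, without any sum that could pass the exact permutation test (p = 0.10 at best, 0.12 adjusted over the steps). Scaling by library size alone raised all 21 log2 ratios and turned 5 of them from lower to higher. Phosphofructokinase, lactate dehydrogenase and glucose-6-phosphate dehydrogenase stood at 2.56, 2.54 and 5.74 times the control level. Pyruvate kinase and enolase were at 0.338 and 0.568 of it. Glucose uptake, triose phosphate isomerase and phosphoglycerate mutase were the 3 steps whose libraries overlapped between genotypes. Of all single genes tested, 81.8% did not overlap. Pyruvate kinase remained the step with the highest sum, at 1593 ± 68.0 RPKM in Pdk4fl/fl and 539 ± 60.04 in Pdk4SMKO cells (SD, n = 3). Phosphofructokinase, at 34.6 ± 0.653, and Gpi1, at 48.7 ± 2.66, changed order, to 88.6 ± 12.7 and 30.1 ± 1.35 (SD, n = 3).

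Of 55 further genes around the pathway, 54 were found and 39 passed the filter on low counts, of which 21 were called higher and 6 lower. These are 53.8% and 15.4% of those tested, beside 32.8% and 26.5% of all genes, and their median log2 fold change was 1.04. Genes that passed the filter include some that did so through the genotype in which they were high, so the shares are a description. Among those with at least 10 CPM in the higher genotype, 14 were called higher and 6 lower. H6pd, which carries out the entry reactions of the pentose phosphate pathway inside the endoplasmic reticulum, rose from 3.72 ± 0.652 to 263 ± 34.9 CPM (SD, n = 3), a log2 fold change of 6.15 (SE 0.19, adjusted p = 9.7e-09). Tigar, a phosphatase that lowers fructose 2,6-bisphosphate, rose from 0.855 ± 0.532 to 27.1 ± 2.20 CPM (SD, n = 3, log2 fold change 4.99). Idh1, the cytosolic isocitrate dehydrogenase, which also makes NADPH, rose from 15.1 ± 2.07 to 206 ± 34.2 CPM (SD, n = 3, log2 fold change 3.78), while Me1, the cytosolic malic enzyme, had a log2 fold change of 0.11 that did not pass the test (adjusted p = 0.40).

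Paired genes outside the list also moved apart. Prps1 and Prps2 both make phosphoribosyl pyrophosphate from ribose 5-phosphate. Prps1 fell from 58.8, 60.1 and 83.8 CPM to 15.5, 13.2 and 17.5 CPM (log2 fold change -2.13, adjusted p = 2.1e-06). Prps2 rose from 14.4, 13.8 and 14.5 CPM to 58.6, 56.8 and 67.0 CPM (log2 fold change 2.09, adjusted p = 2.7e-07). Of the sugar transporter family, Slc2a6 fell from 40.3 ± 2.85 to 0.795 ± 0.280 CPM (SD, n = 3, log2 fold change -5.64), while Slc2a10 (log2 fold change 3.72) and Slc2a8 (1.29) rose. Sord, sorbitol dehydrogenase of the polyol pathway, fell from 854 ± 51.2 to 49.0 ± 12.5 CPM (SD, n = 3, log2 fold change -4.13), and Khk, the kinase for its product fructose, had a log2 fold change of -1.40. With the same minimum of 10 CPM, the rest of those called lower were Pgm1 (-1.87) and Pck2 (-1.26), and the rest of those called higher were Ldhd (4.94), Gpd1l (4.24), Pcx (1.46), Galk1 (1.31), Pgp (1.27), Pgm3 (1.12) and Minpp1 (1.05), all as log2 fold changes. Under that minimum, Pfkfb1, Pgam2, Gapdhs, Slc2a9, Slc2a12, Rbks and Shpk were called higher as well. Khk (-0.79) and Pck2 (-0.65) came under the 2-fold limit when libraries were scaled by size alone, and Pgk1 (0.88), Bsg (0.73) and Me1 (0.71) then passed the adjusted p.

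**Figure D5:**
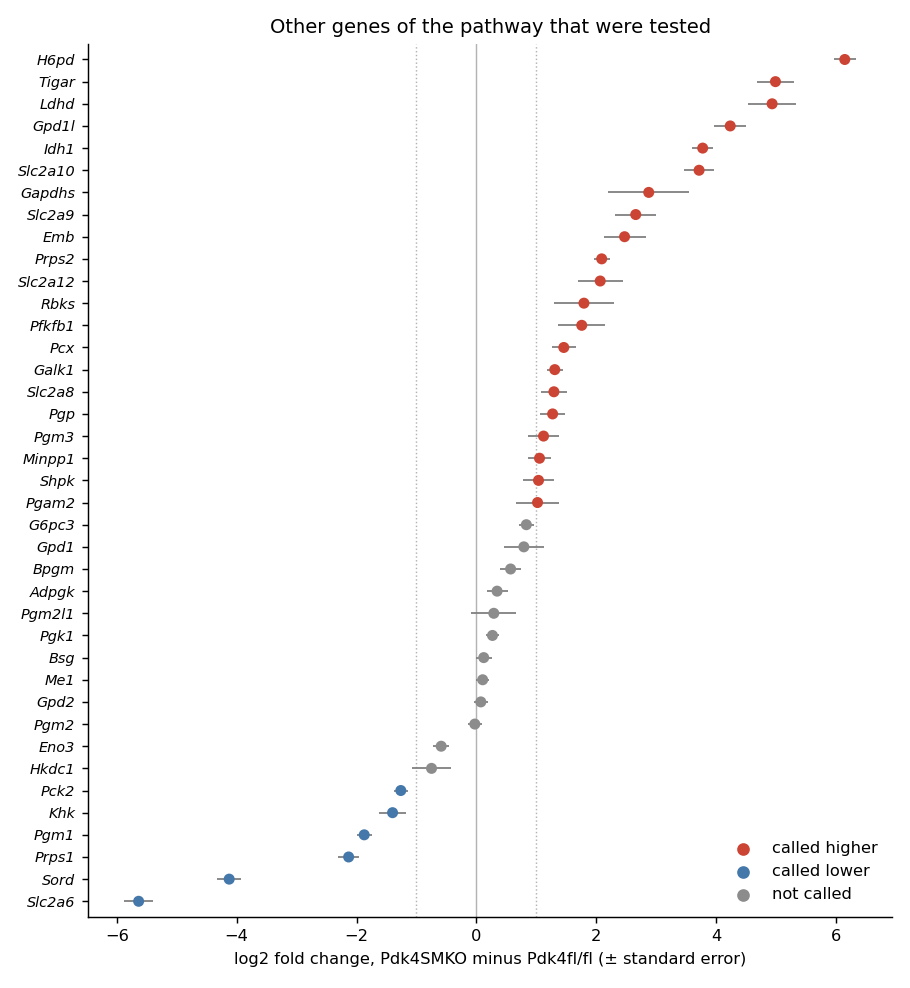
Log2 fold change, Pdk4SMKO minus Pdk4fl/fl, with its standard error for the 39 further genes that were tested (red, called higher, blue, called lower, and grey, not called, with dotted lines at 2-fold). H6pd at 6.15 and Slc2a6 at -5.64 lie at the ends.

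Of 16 regulators of these pathways, all of which were tested, 6 were called higher and 6 lower. These are 37.5% each, beside 32.8% and 26.5% of all genes. Mlxipl passed the filter only through the Pdk4SMKO libraries, so the shares are a description. Hif1a, the oxygen-sensitive subunit of HIF-1 that activates glycolytic genes, rose from 315, 283 and 239 CPM to 538, 761 and 839 CPM (log2 fold change 1.35, adjusted p = 5.8e-05), and Epas1, which encodes HIF-2 alpha, rose with a log2 fold change of 1.93. Txnip and Arrdc4, which restrain glucose uptake and are induced by glucose through the Mlx partners, fell with log2 fold changes of -1.29 and -3.17, and Mlx itself fell (-1.65). Scaling by library size alone left Txnip at -0.69, under the 2-fold limit. Trp53, whose protein induces Tigar, fell from 750.3 ± 38.9 to 105 ± 5.09 CPM (SD, n = 3, log2 fold change -2.84), and Ppargc1a, a coactivator of mitochondrial genes, fell with -2.23. Nfe2l2, which encodes NRF2, an activator of G6pdx and other NADPH-making genes, measured 219 ± 10.5 and 146 ± 6.32 CPM (SD, n = 3, log2 fold change -0.58, adjusted p = 0.00058, and 0.023 under scaling by library size alone), with Keap1, its inhibitor, at 1.08 and Bach1, a repressor of the same elements, at -1.85. Esrra (1.12), Prkaa2 (1.48) and Mlxipl (4.33, at 1.28 CPM or less) were the others called higher, and Myc (-0.70), Prkaa1 (-0.52) and Mlxip (0.31, adjusted p = 0.056) stayed under 2-fold. Under scaling by library size alone these 3 were at -0.095, 0.083 and 0.91, and of them Mlxip alone passed the adjusted p.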

How the data were processed

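mRNA libraries of 6 samples were sequenced as 150-base paired ends. The deposited values are raw counts per gene, with gene lengths in the same table, from which RPKM was computed here. The labels name a SMARTER kit and GRCm39, the study's methods an NEBNext kit, and the table's identifiers belong to the C57BL/6NJ strain annotation. The aligner, the counting program and the use of strand are not given in the sources used here. Groups follow the genotype label.

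Genotypes were compared with edgeR 4.0.16 in R 4.3.3 (filterByExpr, TMM, quasi-likelihood test on genotype, Benjamini-Hochberg over 14085 genes) and with DESeq2 1.42.0 as an alternative. A call required an adjusted p under 0.05 together with a 2-fold difference. Ratios and step sums were compared by exact permutation in Python 3.11.15. The fits were checked on simulated counts with known changes. All listed genes, Pdk4, Pgk1 and those of the further genes that were called with at least 10 CPM in the higher genotype are named, and overlapping genes, Xist, cell markers, Bsg, Me1, the further genes under 10 CPM and the regulators were added after their values were seen. The list and the further lists were chosen with earlier results of these data known. Same-numbered libraries deviated together with correlations of 0.040, 0.060 and 0.176, so numbers were not treated as pairs.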

Additional observations from a re-analysis of the deposited data

How the results depend on the processing

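The counts of 4 lower and 10 higher genes among the 28 were those of the same genes under RLE and upper-quartile scaling, DESeq2, no filter and protein-coding rows alone. Scaling by library size alone gave 2 lower and 11 higher, and over all genes tested 2390 lower and 6184 higher in place of 3733 and 4616, since it sets aside the TMM factors. An adjusted p under 0.05 at any fold gave 11 lower genes and a fold change of at least 1.5 gave 9. At least 10 counts in every library left 8 higher, without Aldoc and Slc16a3, which that filter removes. With a library left out, 9 to 10 were higher and 4 lower, and Pfkfb3 was the gene lost. Among the further genes, the calls were 4 to 7 lower and 14 to 24 higher over all alternatives. The replicate block kept all 4 lower and 10 higher genes. Same-numbered libraries correlated at 0.040, 0.060 and 0.176, and Pdk4fl/fl 1 correlated better with Pdk4SMKO 2 (0.043) than with its own number, so the numbers were not taken as pairs.

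Signs turned under scaling by library size alone for Pfkfb4 (log2 fold change 0.39), Aldoa (0.25), Gapdh (0.12), Eno1 (0.30), Mpc2 (0.43) and Taldo1 (0.067), and for the step sums of aldolase (0.28), GAPDH (0.12), monocarboxylate transport (0.34), pyruvate carrier (0.056) and transaldolase (0.066). Upper-quartile scaling turned Mpc2 to 0.022. With a library left out, Hk1 ranged from -0.082 (without Pdk4fl/fl 3) to 0.19, Pgam1 from -0.050 (without Pdk4fl/fl 1) to 0.15 and Mpc2 from -0.40 to 0.13 (without Pdk4fl/fl 3), and these 3 genes did not pass the test with all libraries. A pseudocount of 5 in place of 0.5 reduced the difference of the log2 ratio from 7.42 to 5.35 for Aldoc/Aldoa and from 8.20 to 6.89 for Slc16a3/Slc16a1, whose control counts are near 0. Depth limits these 2 genes and Slc2a3, while the other listed genes had means of at least 6.34 CPM in either genotype.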

Other observations

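Of the 32 genes, 7 lie on chromosome 6 in the table (Slc2a3, Hk2, Tpi1, Gapdh, Eno2, Ldhb and Rpia), with log2 fold changes that range from -3.08 for Eno2 to 2.93 for Ldhb. Ikbkg, which overlaps G6pdx on the opposite strand, rose from 29.8 to 187 CPM (log2 fold change 2.65, adjusted p = 1.8e-07), next to 17.1 to 98.3 CPM for G6pdx. Pitrm1, which overlaps Pfkp, fell from 282 to 79.1 CPM (log2 fold change -1.84, adjusted p = 6.6e-07) while Pfkp rose.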
